A study of Mus musculus with 6 samples.

Results

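The CIP/KIP and INK4 genes encode the inhibitors that hold back the kinases of the cell cycle. The 7 genes were Cdkn1a (p21), Cdkn1b (p27) and Cdkn1c (p57) of the CIP/KIP family and Cdkn2a (p16 and p19ARF), Cdkn2b (p15), Cdkn2c (p18) and Cdkn2d (p19) of the INK4 family. All 7 were found by symbol in the platform annotation, in 8 of 34760 probe sets, and Cdkn1b had 2 of these. The Cdkn1a probe set also carried the symbol 4930567H12Rik, a long noncoding RNA gene, so its value cannot be assigned to Cdkn1a alone.

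The arrays held RNA of mouse embryonic stem cells, 3 labelled wild-type and 3 labelled Trim71 KD. For the knockdown, a mixture of 3 siRNAs against Trim71 was transfected, and cells were harvested 72 h later. The labels mention a non-targeting siRNA, but do not say whether the wild-type arrays come from cells that received it. Neither the cell line, the culture with or without feeder cells, nor separate cultures for the replicates are given in the sources used here, so p-values measure the spread between these arrays, which may be technical.

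CIP/KIP proteins bind complexes of cyclins D, E and A with their kinases and block entry into S phase, whereas INK4 proteins bind the cyclin D kinases Cdk4 and Cdk6 and keep the D cyclins from them. Embryonic stem cells are known for a short G1 phase and low inhibitor levels, which they gain on differentiation. Trim71, an RNA-binding ubiquitin ligase of these cells, is reported to repress Cdkn1a mRNA together with microRNAs, and the comparison asks how the inhibitor transcripts stood after its loss.

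The knockdown left 34.9% of the Trim71 signal (95% confidence interval 32.3 to 37.6%), with log2 values of 10.48, 10.50 and 10.51 on the control arrays and 9.00, 8.95 and 8.98 on the knockdown arrays. Array medians were close, from 6.26 to 6.31, and knockdown array 3 stood apart, with an upper quartile of 8.42 against 8.32 to 8.35 and a typical distance from its group mean (root mean square over probe sets) of 0.17 against 0.12 to 0.15. The embryonic stem cell label was met by its markers: 12 of 12 lay above the upper quartile of all probe sets. Of these, 0 passed the test in limma. An unadjusted p under 0.05 was reached by 5, against 16.2% of 19937 genes with 1 probe set. When each gene had 1 probe set in the fit, 2 were called higher, where 3.39% of all genes were. The largest statistics were those of Fgf4 at 0.31, Zfp42 at 0.25, Nanog at 0.15 and Utf1 at 0.14, with adjusted p-values from 0.0699 to 0.307. The list median was 0.06, and Dppa2 at −0.07 and Dppa4 at −0.04, picked with their values known, had negative changes.

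Cdkn1b fell, and it was the 1 inhibitor transcript that passed the test. The p27 protein it encodes binds and blocks Cdk2 with cyclin E or A and is known as a brake on the exit from quiescence. Its brighter probe set read 9.09, 9.04 and 9.06 on control arrays 1 to 3 and 8.56, 8.48 and 8.72 on knockdown arrays 1 to 3. Every knockdown value lay below every control value, and array 3 was the highest of the knockdown group. The means were 9.06 ± 0.022 (SD, n = 3) and 8.59 ± 0.12 (SD, n = 3). The log2 fold change was −0.48 ± 0.072 SE (95% confidence interval −0.65 to −0.30, adjusted p = 0.049 in limma over 34760 probe sets), which leaves 71.9% of the control signal (63.8 to 81.1%). An exact two-sided permutation test over the 6 arrays gave p = 0.1, its floor with 3 arrays a group.

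**Figure D1:**
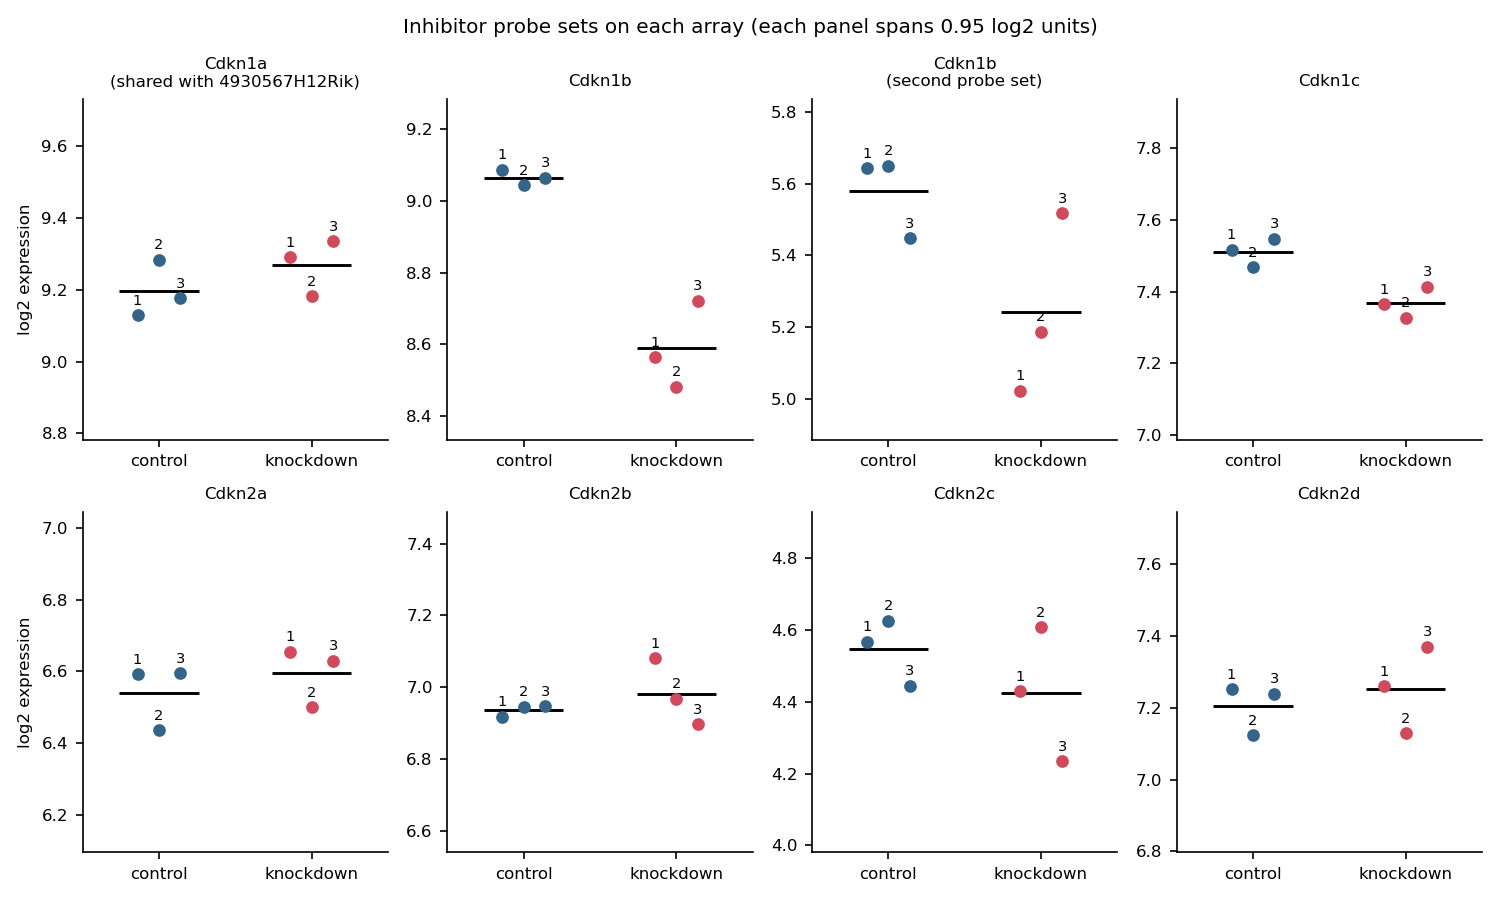
Log2 expression of the 8 inhibitor probe sets on each array, numbered by replicate, with controls in blue, Trim71 knockdown in red and group means as bars. The brighter Cdkn1b probe set falls from 9.06 to 8.59 and Cdkn1c reads 7.51 and 7.37 without overlap, while the groups overlap in the other 6 panels.

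The call of Cdkn1b lay at the edge of the threshold, and the size of the change was steadier than its adjusted p. With 1 array left out, the log2 fold change ranged from −0.54 to −0.42, and the adjusted p ranged from 0.0487 without knockdown array 3 to 0.21 without control array 1. The call was lost without control array 1, 2 or 3 (adjusted p of 0.21, 0.194 and 0.17) and without knockdown array 1 or 2 (0.126 and 0.159). This loss was not particular to Cdkn1b. Of 34760 probe sets, 400 were called with all arrays, but only 3, 1 and 2 without control array 1, 2 or 3. Without knockdown array 1, 2 or 3 the calls were 1, 1 and 93. Among 19937 genes with 1 probe set each, of which 5.53% were called, the same change had an adjusted p of 0.0103. Among the 22961 probe sets with a symbol, of which 4.62% were called, it had one of 0.0138.

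The second Cdkn1b probe set, annotated with the same RefSeq transcript, was dimmer and noisier, and it did not pass the test. It read 5.64, 5.65 and 5.45 on the control arrays and 5.02, 5.19 and 5.52 on the knockdown arrays. Knockdown array 3 lay inside the control range, while arrays 1 and 2 lay below it. Its log2 fold change was −0.34 ± 0.14 SE (95% confidence interval −0.67 to −0.0089, adjusted p = 0.345 in limma). When both Cdkn1b probe sets were averaged, the change was −0.41 and no longer passed (adjusted p = 0.124). The direction of Cdkn1b was thus the same in both sets, but the call rested on the brighter one.

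**Figure D2:**
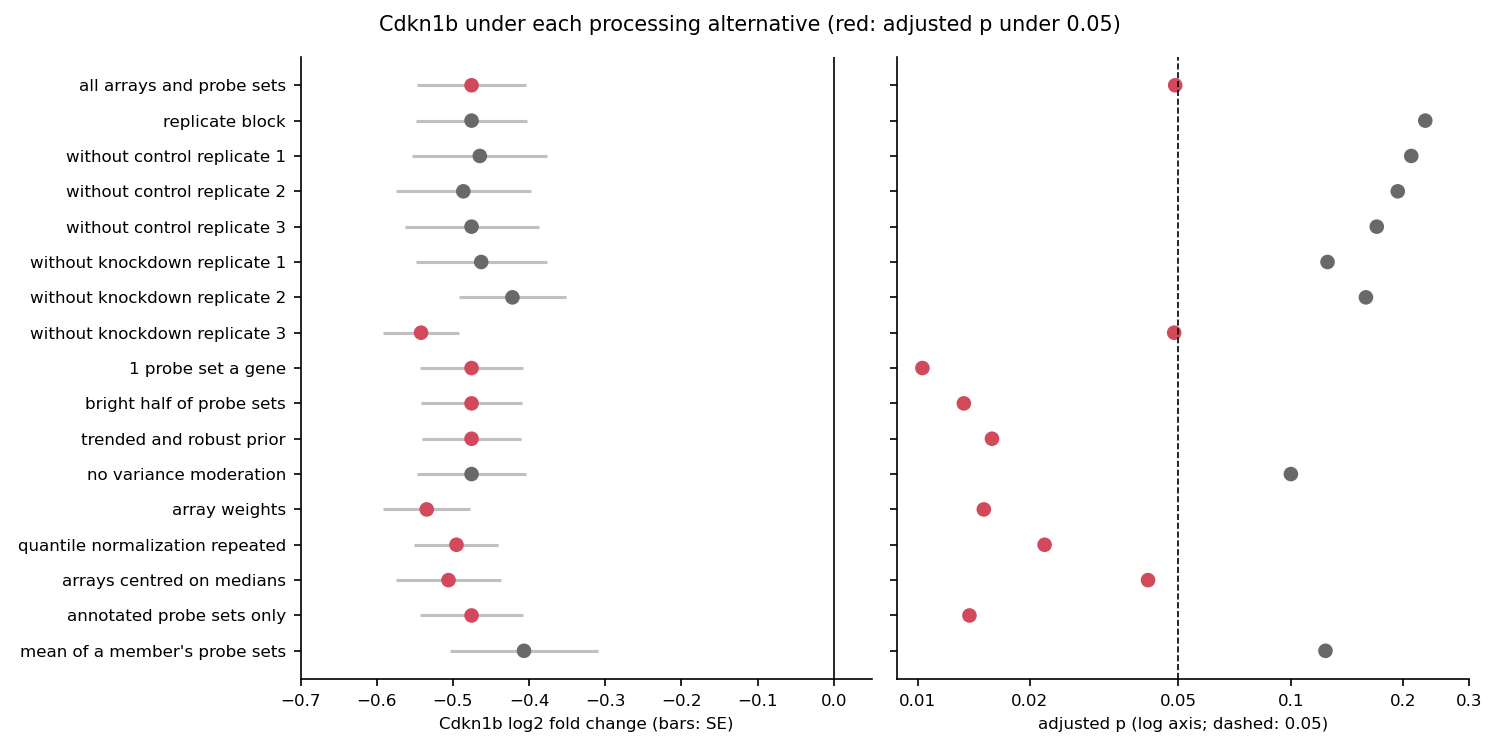
Cdkn1b log2 fold change with its standard error (left) and adjusted p on a log axis (right) for all arrays and probe sets and for each alternative. The change lies between −0.54 and −0.41, and is −0.48 by construction where only the variance or the tested probe sets differ. The adjusted p moves between 0.0103 and 0.23 across the 0.05 line.

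The 1 call among 8 inhibitor probe sets stands against 1.15% of all 34760 probe sets called in either direction, 0.765% higher and 0.386% lower. The brighter Cdkn1b probe set ranked 215th of all probe sets by its decrease, and 97.6% of probe sets had a smaller absolute change. By unadjusted p it was number 350, where 400 were called. The groups did not overlap for 2 of the 8 inhibitor probe sets, Cdkn1b and Cdkn1c, both with the knockdown lower, against 8.78% of all probe sets in that direction and 21% in either. The median log2 change was −0.04 over the 8 inhibitor probe sets and 0.01 over all probe sets. Of the 8, 4 had negative and 4 positive changes, so the inhibitors had changes of both signs.

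Cdkn1a encodes p21, the inhibitor that p53 induces after DNA damage, and its transcript is the one reported as a target of Trim71. Its probe set, shared with 4930567H12Rik, read 9.13, 9.28 and 9.18 on the control arrays and 9.29, 9.18 and 9.33 on the knockdown arrays. The groups overlapped, with control array 2 above knockdown array 2. The log2 fold change was 0.07 ± 0.067 SE (95% confidence interval −0.09 to 0.24, adjusted p = 0.718 in limma), and an exact two-sided permutation test gave p = 0.2. The upper bound of this interval is a level 1.18-fold above control, so a larger increase of the probe set's signal lies outside it, within the 95% confidence of the fit. The probe set was bright, above 84.2% of the table. Leaving out any 1 of the 6 arrays kept the change positive, from 0.04 to 0.12.

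Cdkn1c encodes p57, an imprinted inhibitor of fetal growth. It read 7.52, 7.47 and 7.55 on the control arrays and 7.37, 7.33 and 7.41 on the knockdown arrays. The 3 knockdown values all lay below the 3 control values, with small spread in both groups (SD 0.040 and 0.043, n = 3 each). The log2 fold change of −0.14 ± 0.051 SE (95% confidence interval −0.26 to −0.02) did not pass the test (unadjusted p = 0.0299, adjusted p = 0.285 in limma). An unadjusted p under 0.05 was reached by 3 of the 8 inhibitor probe sets, the pair for Cdkn1b and the set for Cdkn1c, against 13.9% of all probe sets. With other settings Cdkn1c had changes from −0.17 to −0.12 and was called in 0 of 15.

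Among the 4 INK4 genes, 0 were called in limma, and 0 had an unadjusted p under 0.05. Cdkn2a gives rise to p16 and, from another first exon, to the p53 activator p19ARF, and its probe set is annotated with transcripts of both. It read 6.59, 6.44 and 6.60 on the control arrays and 6.66, 6.50 and 6.63 on the knockdown arrays. The ranges overlapped, and array 2 was the lowest of each group. This gave a log2 fold change of 0.05 ± 0.071 SE (95% confidence interval −0.12 to 0.23, adjusted p = 0.822).

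Cdkn2b encodes p15, an inhibitor that transforming growth factor beta induces in epithelial cells. It read 6.92, 6.95 and 6.95 on the control arrays and 7.08, 6.97 and 6.90 on the knockdown arrays. The knockdown arrays spread on both sides of the controls, and the change of 0.05 (95% confidence interval −0.10 to 0.19, adjusted p = 0.825 in limma) turned to −0.0044 without knockdown array 1. Cdkn2a and Cdkn2b lie side by side in the mouse genome, next to the metabolic gene Mtap, which read 9.00 and 8.99 in the group means (log2 fold change −0.01, adjusted p = 0.949).

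Cdkn2c encodes p18, which is expressed in many dividing cells. It was the dimmest of the 8 sets relative to the table, with 22.4% of probe sets below it, and a change of its transcript would be understated there. It read 4.57, 4.63 and 4.45 on the control arrays and 4.43, 4.61 and 4.23 on the knockdown arrays. The groups overlapped, with knockdown array 3 the lowest value. Its log2 fold change was −0.12 ± 0.11 SE (95% confidence interval −0.38 to 0.13, adjusted p = 0.69 in limma).

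Cdkn2d encodes p19 of the INK4 family, a protein distinct from p19ARF. It read 7.25, 7.12 and 7.24 on the control arrays and 7.26, 7.13 and 7.37 on the knockdown arrays. Knockdown array 2 lay inside the control range, and arrays 1 and 3 lay above it. The log2 fold change was 0.05 ± 0.078 SE (95% confidence interval −0.14 to 0.24, adjusted p = 0.859 in limma). It was −0.0098 without knockdown array 3 and −0.0085 with array weights, so no direction can be given.

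**Figure D3:**
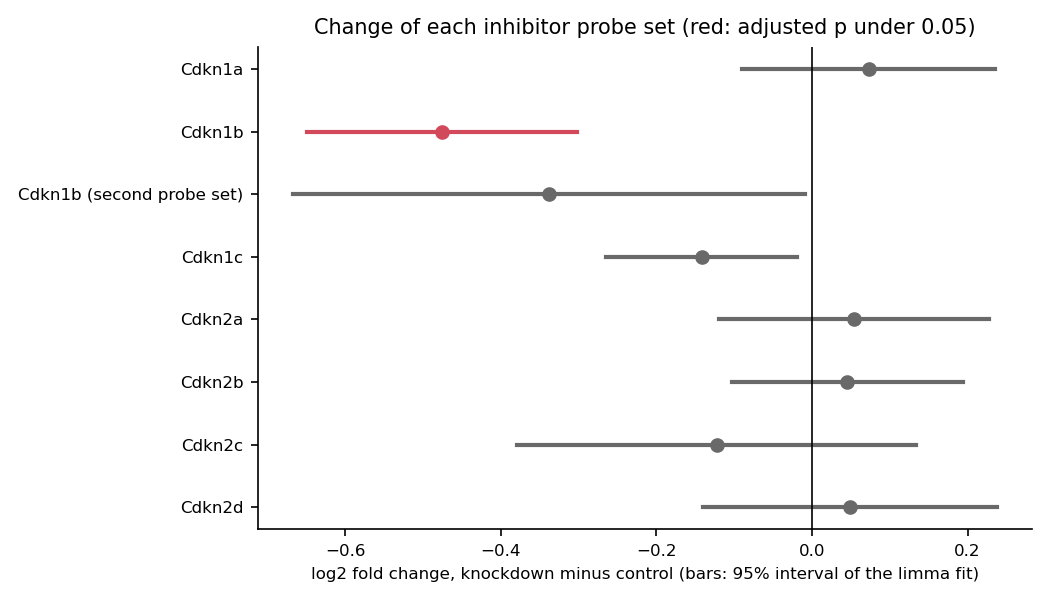
Log2 fold change of each inhibitor probe set (knockdown minus control, points) with the 95% interval of the limma fit (bars). Only the brighter Cdkn1b probe set, at −0.48, passed the test, and the intervals of Cdkn1a and the 4 INK4 genes include 0.

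Cdkn1b was set against the other inhibitors by the difference of their log2 values on each array, as a description with no test, since Cdkn1b was picked for its call. Relative to Cdkn1a, Cdkn1b was lower by 0.48 to 0.60 on the knockdown arrays than in the control mean, and the controls spread from −0.11 to 0.09. The difference of the changes was −0.55 against Cdkn1a, −0.53 against Cdkn2a and −0.52 against both Cdkn2b and Cdkn2d. It was smaller against Cdkn1c, at −0.33. For these 5 pairs the groups did not overlap, but they did not overlap for Cdkn1b alone either. The lack of overlap was thus largely set by the choice of Cdkn1b and is no further support. Against Cdkn2c the difference of −0.35 came with an overlap, on knockdown array 3. All 6 pairs share the Cdkn1b values, so they are not independent of each other.

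**Figure D4:**
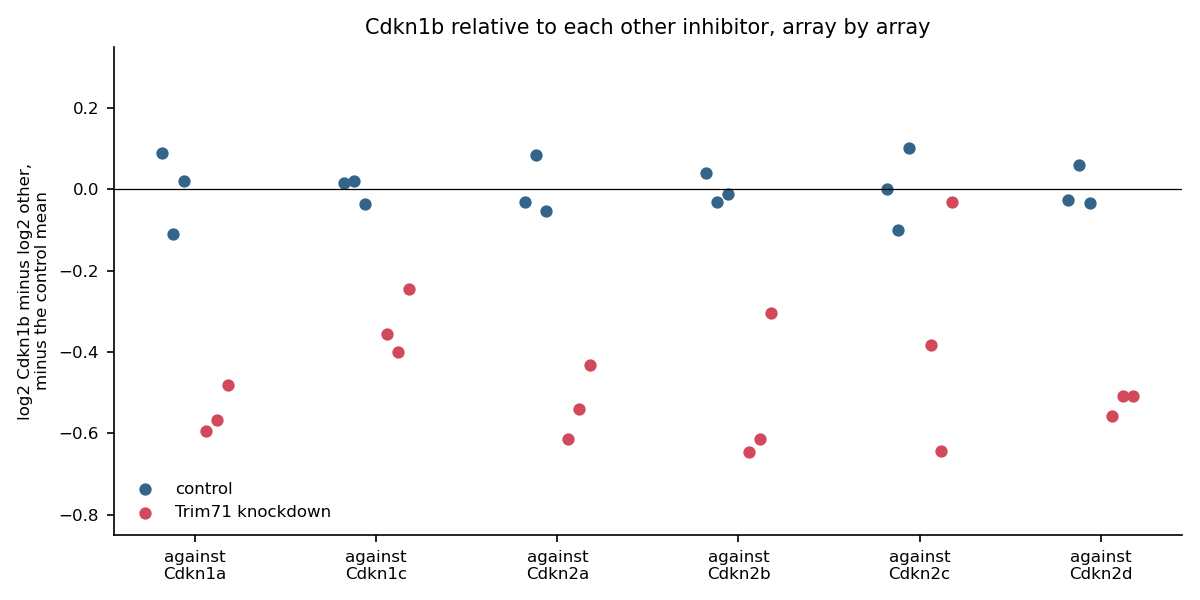
Log2 Cdkn1b minus log2 of each other inhibitor on each array, set to 0 at the control mean, with controls in blue and Trim71 knockdown in red. All 3 knockdown arrays lie below the controls for 5 of the 6 partners, as they do for Cdkn1b alone, and knockdown array 3 overlaps the controls for Cdkn2c.

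The genes whose values over the 6 arrays ran most like those of Cdkn1b were Zswim5 (Pearson r = 0.999), Miga1 (r = 0.998) and Dusp27 (r = 0.997), with log2 fold changes of −0.38, −0.14 and −0.10. Such values are common with 6 arrays in 2 groups: 440 of 10591 genes had an r above 0.95 with Cdkn1b. For Cdkn1a the closest were Cmtr2 (r = 0.99), Bspry (r = 0.983) and Rbm19 (r = 0.981), and 22 genes had an r above 0.95. None of these 6 genes passed the test in limma, and the correlations describe 1 set of arrays that all genes share.

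MicroRNAs are reported to act on several of these transcripts. The mature forms are shown because miR-221 and miR-222 are known to bind Cdkn1b mRNA through 1 shared seed, whereas the miR-302 and miR-17 families are tied to Cdkn1a mRNA. The seeds of miR-302b, miR-302d and the miR-17 group hold AAGUGC in shifted positions, and the listed miR-302c-3p has these letters at bases 1 to 6, so its seed is AGUGCUU. Sequences are from RefSeq (GRCm38.p6), 5′ to 3′, with the seed, bases 2 to 8, in capitals.
miR-221-3p: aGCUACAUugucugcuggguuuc
miR-222-3p: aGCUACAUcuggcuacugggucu
miR-302b-3p: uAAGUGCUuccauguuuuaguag
miR-302d-3p: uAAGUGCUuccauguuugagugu
miR-302c-3p: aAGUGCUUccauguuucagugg
miR-17-5p: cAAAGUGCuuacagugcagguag
miR-20a-5p: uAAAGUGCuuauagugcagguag
miR-93-5p: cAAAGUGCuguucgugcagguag
miR-106b-5p: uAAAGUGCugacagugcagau

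The arrays probe the microRNA genes and not these mature forms, and the microRNA probe sets were dim. Of 24 listed symbols 12 were measured, 9 of them below the median of all probe sets, and 0 were called in limma, with 1 at an unadjusted p under 0.05. Not measured were Mir290, Mir290a, Mir291a, Mir291b, Mir292, Mir292a, Mir293, Mir294, Mir295, Mir290hg, Mir302hg and Mir24-1. Nothing can be said of these genes here. Mir221 read 3.80, 4.10 and 4.05 on the control arrays and 3.79, 3.90 and 3.72 on the knockdown arrays (log2 fold change −0.18, adjusted p = 0.488), and Mir222 was at −0.12 (adjusted p = 0.696). Both lie near the bottom of the scale, where a change could hardly be seen. The 4 genes of the miR-17 seed group, Mir17, Mir20a, Mir93 and Mir106b, were at −0.07, −0.14, −0.01 and 0.10, and were picked with their values known, as was Mir222. The set that reached an unadjusted p under 0.05 was Mir302d at 0.22 (adjusted p = 0.245), beside Mir302a at 0.19 (0.451) and Mir302b at 0.17 (0.431). Mir302c, also picked with its values known, was at 0.07 (0.633). These Mir302 sets were dimmer than those of Mir221 and Mir222, with group means from 3.17 to 3.65, so the same limit holds for them.

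Around the inhibitors, 110 of 129 genes on 10 lists of partners, regulators and neighbours were measured, and 4 rose and 0 fell. This is 3.64% of them, where 1.56% of 19937 genes with 1 probe set were called, 0.993% higher and 0.567% lower. An unadjusted p under 0.05 was reached by 16.2% of those genes, the background for such counts in each list. When 1 probe set a gene entered the fit, 13 of the 110 rose (11.8%) and 0 fell, where 5.53% of all genes were called, 3.39% higher. The lists were chosen with earlier results of these data known, so these differences from the background are no evidence of their own. The 4 genes were Ccnd2, Rbl1, Dtl and Mycn, and with 1 array left out their adjusted p-values reached 0.136, 0.214, 0.142 and 0.166.

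Among the partners that the inhibitors bind, Ccnd2 rose and no kinase was called. Ccnd2, which encodes cyclin D2, read 10.12, 10.07 and 10.05 on the control arrays and 10.98, 10.81 and 10.84 on the knockdown arrays (log2 fold change 0.79 ± 0.062 SE, adjusted p = 0.018 in limma). Of 11 measured cyclins and kinases it was the 1 called, with 4 at an unadjusted p under 0.05, all higher, and a list median of 0.02. Ccnd3 at 0.29 (adjusted p = 0.0715), Ccne2 at 0.44 (0.103) and Ccnd1 at 0.16 (0.223) did not pass. With 1 probe set a gene in the fit, 3 of the 11 were called higher, as Ccnd3 (0.0219) and Ccne2 (0.0327) then passed with Ccnd2. Cdk2, the kinase that p27 blocks, was at −0.03 (95% confidence interval −0.15 to 0.10), and Cdk4 and Cdk6, the kinases bound by INK4 proteins, were at −0.03 and 0.01, all 3 picked with their values known.

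Pocket proteins, which hold E2F factors inactive until the kinases phosphorylate them, and the E2F genes had a median change of 0.13 over 11 genes, against 0.00 over all genes with 1 probe set. Rbl1, which encodes p107, read 8.26, 8.35 and 8.28 in controls and 8.67, 8.62 and 8.79 in knockdown cells (log2 fold change 0.40 ± 0.061 SE, adjusted p = 0.0497 in limma), again at the edge of the threshold. Rb1 at 0.24, E2f3 at 0.28 and E2f7 at 0.27 did not pass, with adjusted p-values of 0.0982, 0.114 and 0.0889. All 3 were called with 1 probe set a gene in the fit (0.0363, 0.0426 and 0.0295), where 4 of the 11 were higher.

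Genes for the turnover of p27 and p21 protein were called for 1 of 14. This was Dtl, which encodes the receptor of the ligase that destroys p21 in S phase, at 0.50 ± 0.045 SE (adjusted p = 0.0184 in limma), with 9.84, 9.82 and 9.80 on the control arrays and 10.29, 10.32 and 10.34 on the knockdown arrays. Skp2, the F-box protein that marks p27 for degradation, was at 0.14 (adjusted p = 0.242), Cul1 at −0.14 (0.304) and Psme3 at −0.13 (0.334). The data give transcripts only, and p27 protein, which is largely set by its degradation, was not measured.

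Transcription factors known to activate inhibitor genes were called for 0 of 17 in limma, with 6 at an unadjusted p under 0.05, all higher, but 4 were called higher with 1 probe set a gene in the fit. They were led by Klf4 at 0.36 (adjusted p = 0.0551), Ets1 at 0.28 (0.0738), Kmt2a at 0.30 (0.0858) and Junb at 0.26 (0.103), and these are the 4, with adjusted p-values of 0.0141, 0.0232, 0.0275 and 0.0377 in that fit. Foxo1, Foxo3 and Foxo4, activators of Cdkn1b picked with their values known, were at 0.06, −0.04 and −0.07. The activity of these proteins was not measured, and their part in the lower Cdkn1b was not tested. Of 17 repressors Mycn rose by 0.46 ± 0.053 SE (adjusted p = 0.0304 in limma). Myc at −0.29 (0.218), the Polycomb gene Bmi1, a repressor of the Cdkn2a locus, at −0.25 (0.261), and Cbx2 at 0.20 (0.215) did not pass.

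RNA-binding proteins that act on inhibitor mRNAs were called for 0 of 8 in limma, with 1 at an unadjusted p under 0.05, Rbm38 at 0.12 (adjusted p = 0.312). Pum2, related to the Pumilio protein known to act on Cdkn1b mRNA, was at −0.08 (0.548), Ago2 at −0.08 (0.508) and Elavl1 at 0.03 (0.852). Neighbours of Cdkn1c in its imprinted domain were called for 0 of 11 in limma, with 2 lower at an unadjusted p under 0.05, Phlda2 at −0.18 (0.155) and Nap1l4 at −0.13 (0.315). Ascl2 at 0.17 (0.462) and Tspan32 at 0.13 (0.481) did not pass either, so no direction of the domain can be given beside the −0.14 of Cdkn1c. The other neighbours of Cdkn2a and Cdkn2b, Dmrta1 at −0.11 and Elavl2 at −0.12, and 6 genes with related names, of which Cdkn2aipnl at −0.09, Cdk2ap2 at 0.07, Cdk2ap1 at −0.06 and Cdkn2aip at 0.06 had the largest statistics, gave 0 calls in limma and 0 at an unadjusted p under 0.05.

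**Figure D5:**
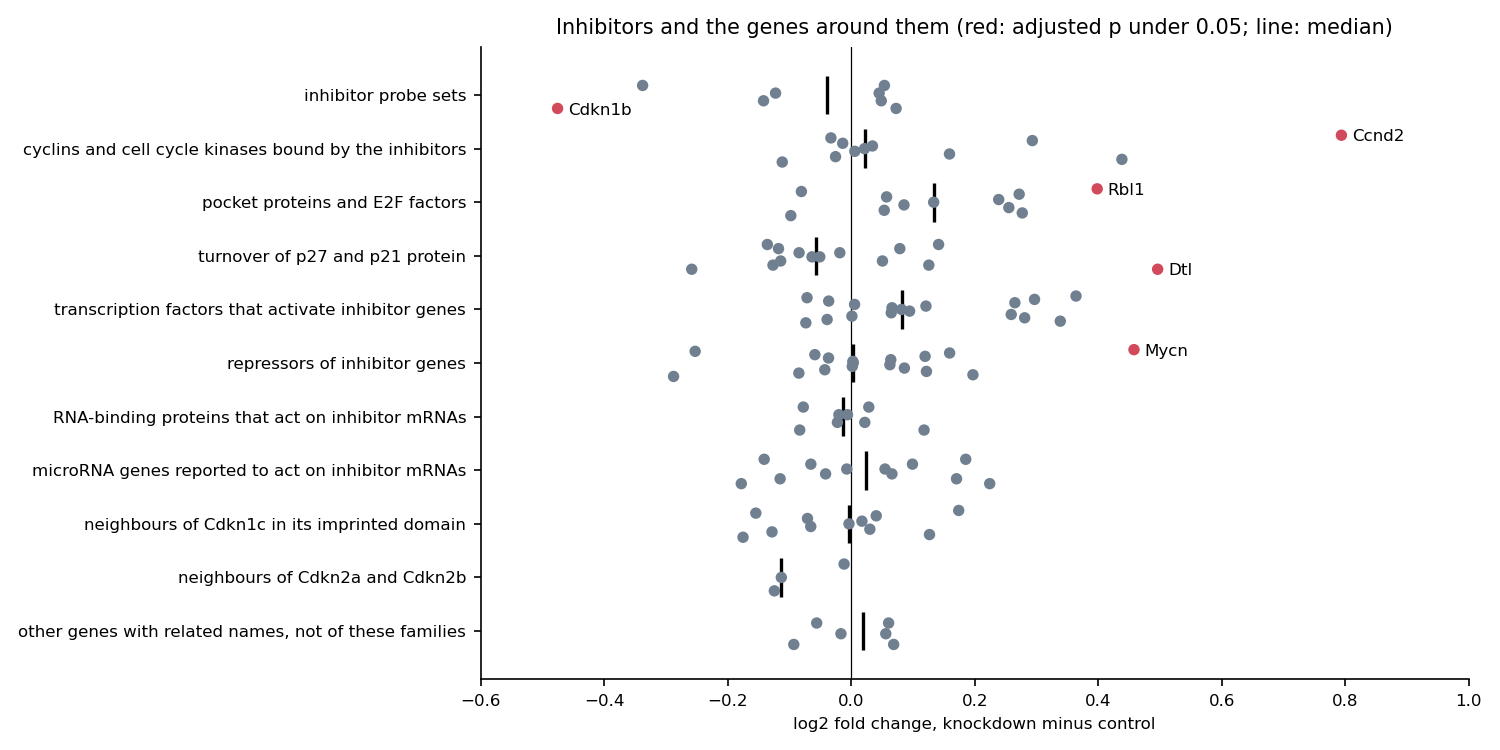
Log2 fold changes of the inhibitor probe sets and of the genes on 10 lists around them, 1 point a gene, with list medians as lines and called genes in red. Cdkn1b is the 1 called point to the left of 0, and Ccnd2, Dtl, Mycn and Rbl1 are the called points to the right.

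Markers of other cell types gave 1 call a list, where 1.56% of 19937 genes with 1 probe set were called, 0.567% lower. Of 16 fibroblast markers, which would mark feeder cells, 1 was called, Acta2 at −0.70 (adjusted p = 0.0361 in limma), and the mean level of the list ran from 5.85 to 5.97 on the control arrays and from 5.74 to 5.94 on the knockdown arrays. The collagens Col1a1, Col1a2 and Col3a1, which define such cells and were picked with their values known, were at −0.02, −0.01 and −0.09, with adjusted p-values from 0.718 to 0.981, beside Col5a2 at −0.09 and Loxl1 at 0.09. Of 11 markers of differentiated lineages 1 was called, Pax6 at −0.76 (0.0348), and the mean level of the list was 6.73 to 6.76 in controls and 6.60 to 6.65 after the knockdown. On the same list the neural progenitor gene Nes was at 0.27 (0.129, and 0.0497 with 1 probe set a gene in the fit), Eomes at −0.30 (0.397) and Hand1 at −0.16 (0.436). The files carry no detection call, so none of these markers can be given as absent, and the part of other cells in the lower Cdkn1b was not tested. In bulk RNA, fewer cells that express a transcript and less of it per cell cannot be told apart.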

How the data were processed

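RNA of 3 control and 3 knockdown samples was measured on single-colour Affymetrix whole-transcript arrays. Amplification started from 100 ng of total RNA, and biotin-labelled sense-strand cDNA was hybridised, per the labels' protocols. The deposited table holds log2 values per probe set; per the submitters' processing notes RMA and affy were used, with no version given. RMA subtracts background, quantile normalizes and summarizes probes, so a change shared by most genes would not be seen and changes of dim sets are understated.

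Names came from GEO's annotation of the platform (21640 with 1 symbol, 1321 with several, 11799 unnamed here). Limma 3.58.1 in R 4.3.3 (lmFit, eBayes) was fitted to all 34760 probe sets, so that Cdkn1a, which has no set of its own, could enter, with Benjamini-Hochberg adjustment over all and calls at an adjusted p under 0.05. The list counts use the brightest single-symbol set of a gene. Exact permutation tests used scipy 1.17.1. The fit was tested on simulated data, where it called 55 of 100 1.5-fold and 73 of 100 2-fold changes, with 4 false calls. An uncalled probe set is thus not shown to be unchanged. No filter on low values was applied. No pairing by replicate number was seen over the whole table: same-numbered deviations from the group means correlated at −0.07, −0.05 and −0.22. Those with different numbers ran from −0.19 to 0.23, the highest for control array 3 with knockdown array 1. Deviations from a mean of 3 arrays cancel out within each group, so these correlations cannot exclude a pairing. A batch that does not follow the numbers was not tested. No arrays held the same values.

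Named genes are the 7 members, Trim71, and in each list the called genes and the 4 with the largest statistic, plus the 3 most correlated genes; others are said to be picked with their values known. The members and lists were chosen with earlier results of these data known. The number of arrays limits the precision. The files name no genome build, so gene coordinates are not printed.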

Additional observations from a re-analysis of the deposited data

How the results depend on the processing

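Alternatives were the replicate block, each array left out, 1 probe set a gene, probe sets at or above the median level, a trended and robust prior, no variance moderation, array weights, a repeated quantile normalization, arrays centred on medians, the mean of both Cdkn1b sets and, added after seeing the data, annotated probe sets only. The Cdkn1b call was kept in 8 of 16 alternatives. Cdkn1b stayed at −0.48 but was not called without variance moderation (adjusted p = 0.1) or with the replicate block (adjusted p = 0.23), where Trim71 at −1.52 was not called either (0.212). It was at −0.41 as the mean of both sets, and from −0.54 to −0.42 with an array left out. Over its alternatives the adjusted p ran from 0.0103 to 0.23. Trim71 was called in the 14 others, and Cdkn1a, Cdkn1c, Cdkn2a, Cdkn2c and the second Cdkn1b set kept their sign, uncalled, in all of theirs. The replicate block, 1 probe set a gene, the level filter, the prior, no moderation and annotated sets cannot move a log2 fold change. Only left-out arrays, array weights, the repeated normalization, centring and averaged sets can. Cdkn2a was at 0.0011 without control array 2. Cdkn2b ran from −0.0044 to 0.088 with an array left out, and Cdkn2d from −0.0098 to 0.11; with array weights Cdkn2d was −0.0085.

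The inhibitor sets called were 1 or 0 with an array left out, 0 with the block and 0 without moderation (limma). Over all probe sets, 400 were called, 266 of them higher (66.5%). The calls were 0 with the replicate block (3867 at an unadjusted p under 0.05), and 1 to 93 with an array left out: 3, 1 and 2 without control array 1, 2 and 3, and 1, 1 and 93 without knockdown array 1, 2 and 3. They were 1103 with 1 probe set a gene, 1466 above the median level, 1179 with a trended prior, 207 without moderation, 1249 with array weights, 849 after repeated quantile normalization and 1061 in annotated sets. Of the calls, 55.0% were higher after that normalization and 52.2% with arrays centred on medians. Of the 110 list genes, 13 (11.8%) were called higher with 1 probe set a gene, against 4, where 3.39% of all 19937 genes were. Dim sets limit Cdkn2c and the second Cdkn1b set most.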
